A study of Mus musculus with 4 samples.

Results

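The mRNAs of 34 RNA-binding regulators of mRNA storage and translation were followed in RNA recovered by immunoprecipitation (IP) of TSSK2 from mouse testis. The 34 genes were chosen by name, as members of 13 groups of related proteins, by a rule that uses no measured value. The choice was made with earlier results of these data known. All 34 were found among the 21936 gene identifiers of the deposited count table, and all 34 were among the 14722 genes that passed the filter on low counts and were tested. What was measured is the mRNA that encodes each regulator. Binding of mRNAs by the regulator proteins was not measured in these libraries.

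TSSK2, a serine kinase made only in the testis, is a component of the late chromatoid body (late-CB), a ribonucleoprotein granule of elongating spermatids. Germ cells came from testes of adult C57BL/6 mice, for which no genetic change or treatment is named. The cells were fixed by a mild cross-link and broken open by lysis and sonication, after which the pellet was incubated with an anti-TSSK2 antibody (TSSK2-IP, 2 libraries) or, for the negative control, with mouse IgG (control IgG-IP, 2 libraries). The cross-link was reversed, RNA was extracted and directional libraries were made without removal of rRNA. Both groups thus share the kind of cell suspension, the cross-link and the pellet fraction, and differ in the antibody. The suspension was not sorted, so it can hold germ cells of every stage and other cells of the testis. The labels number the libraries 1 and 2 in each group but do not say how many animals each library came from, so the p-values below measure the spread between these libraries only, which may be technical.

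In spermatids the chromatin is compacted and transcription ends before the sperm is complete, so proteins of late steps are made from mRNAs that were transcribed earlier, packaged with RNA-binding proteins and stored. Y-box proteins coat and stabilize stored mRNA, and poly(A)-binding proteins join the mRNA tail to the translation machinery. CPEB, DAZ, PUF, ELAV, CELF, STAR, TIA and IGF2BP proteins bind short elements, many of them in the untranslated regions, and repress, activate or protect single groups of mRNAs. G3BP and CAPRIN proteins are core parts of stress granules, cytoplasmic granules that hold untranslated mRNA.

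Members of one family have similar coding sequences, so it was asked first how well a read can tell them apart. The most alike coding stretches of the Y-box and TIA families are shown because these 2 families had the lowest and the highest median fold change of the 13. Each is a window of 90 coding bases across 1 splice junction, read 5′ to 3′ on the gene's strand. The bases come from the GENCODE vM21 transcript sequences, and the coordinates are those of GRCm38. Capitals mark the positions at which the family members differ. The coordinates include the intron between both exons. The Y-box windows join exons 4 and 5 and lie at chr4:119282431-119282852 (minus strand, Ybx1), chr11:69939256-69939891 (plus strand, Ybx2) and chr6:131379463-131380947 (minus strand, Ybx3).
Ybx1: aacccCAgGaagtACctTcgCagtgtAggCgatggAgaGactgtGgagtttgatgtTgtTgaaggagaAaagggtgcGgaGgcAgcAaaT
Ybx2: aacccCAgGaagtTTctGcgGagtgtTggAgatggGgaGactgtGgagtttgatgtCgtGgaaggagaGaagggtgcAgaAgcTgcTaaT
Ybx3: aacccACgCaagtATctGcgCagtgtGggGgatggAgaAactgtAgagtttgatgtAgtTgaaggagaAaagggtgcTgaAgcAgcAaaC
The TIA windows lie at chr6:86420329-86424351 (plus strand, Tia1, exons 6 and 7) and chr7:128446264-128448203 (minus strand, Tial1, exons 5 and 6).
Tia1: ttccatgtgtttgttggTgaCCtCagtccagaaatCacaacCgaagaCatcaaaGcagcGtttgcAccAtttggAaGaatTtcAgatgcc
Tial1: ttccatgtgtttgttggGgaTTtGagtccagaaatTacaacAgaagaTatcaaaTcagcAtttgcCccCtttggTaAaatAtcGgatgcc
Even in these windows the 3 Y-box mRNAs differed at 20 of 90 positions, and no identical run common to all 3 was longer than 11 bases. Single pairs share longer runs, up to 26 bases between the coding sequences of Ybx1 and Ybx2. Tia1 and Tial1 differed at 15 of 90 positions, with a longest shared run of 17 bases. Over the whole coding sequences, the longest run that any pair within a family shared was 37 bases, between Pabpc1 and Pabpc2.

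Copies elsewhere in the genome were closer than family members. Stretches of at least 150 bases at 97% identity or more were shared with annotated pseudogenes or other non-coding transcripts by Ybx1 (239 bases with Gm11560), Pabpc1 (1052 bases with Gm16580), Pabpc4 (3040 bases with Gm10110), Larp4 (2158 bases with Gm14373) and G3bp1 (1399 bases with Gm5913). None of these 5 copies has a row in the count table, and how reads with several matches were counted is not given in the sources used here, so the levels of these 5 mRNAs are uncertain to that extent. Exons of 9 members overlap a gene on the opposite strand, the longest overlaps being those of G3bp2 with Gm26582 (2050 bases), Celf2 with Gm26565 (1961 bases) and Igf2bp3 with Malsu1 (1529 bases). The strand setting of the counting is likewise not given. On the same strand 4 members overlap another gene, Tia1 among them. It shares 352 exon bases with Gm44790, which was counted at 0 in every library. How reads from such shared bases were counted is not given either. Of the overlapping genes, Malsu1 was itself counted at 17 to 34 reads per library, Dnajc19 (178 bases shared with Fxr1) at 51 to 93 and Ccl25 (204 bases shared with Elavl1) at 65 to 114.

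The 4 libraries held between 3938922 and 9858941 counts in total, and after scaling a single count was worth 0.156 to 0.230 CPM. CPM here is a count scaled to its library's size after TMM normalization, a method that assumes most genes to be equal between libraries. The TMM factor was 0.652 for control IgG-IP replicate 1, which raises the levels of that library. It was 1.17 and 1.18 for TSSK2-IP replicates 1 and 2 and 1.12 for control IgG-IP replicate 2. Which control library was the higher one, and by how much, depends on this factor. Before it, control replicates 1 and 2 had 1860 and 917 CPM for Ybx1 and 34.3 and 43.4 CPM for Tial1. Levels below are given for replicate 1 and then replicate 2 of each group. Both TSSK2-IP libraries lay close together, while the control IgG-IP libraries did not. Between the TSSK2-IP libraries 0 of the 34 mRNAs and 6.7% of all genes tested differed at least 2-fold, whereas between the control libraries 20 of the 34 (58.8%) and 43.6% of all genes did. Control IgG-IP replicate 1 had the higher level for 13 of these 20 and replicate 2 for the other 7. At any size of difference, replicate 1 was the higher control for 24 of the 34 (70.6%), against 45.8% of all genes tested. The median ratio of control replicate 1 to control replicate 2 was 1.55 over the 34 mRNAs and 0.893 over all genes tested. The fold change of each of the 34 was therefore also computed without one control library at a time, the remaining control then being assumed to vary like the other group.

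Meiotic and spermatid markers lay far above markers of other testis cells in all 4 libraries. The summed level of 5 markers of elongating spermatids, the cells that contain the late-CB, was 3013 and 2669 CPM in TSSK2-IP and 4440 and 3181 CPM in control IgG-IP. Markers of round spermatids summed to 567 to 1026 CPM and those of spermatocytes to 580 to 715 CPM. The summed level of 5 Sertoli cell markers was 25.3 and 15.98 CPM in TSSK2-IP and 6.08 and 17.5 CPM in control IgG-IP, and that of 5 Leydig cell markers was 35.4 and 34.6 CPM against 14.4 and 33.3 CPM. Peritubular and vascular markers ranged from 15.8 to 31.9 CPM, macrophage markers from 11.7 to 20.9 CPM and spermatogonial markers from 16.5 to 39.0 CPM over the 4 libraries. Insl3, a defining marker of Leydig cells, was at 0 in some libraries. Of the 32 tested markers, 0 passed the test described below, and 0 had an unadjusted p under 0.05. The Sertoli, Leydig, peritubular and vascular, macrophage and spermatogonial sums were all lowest in control IgG-IP replicate 1. After TMM scaling, the spermatocyte, round spermatid and elongating spermatid sums were all highest there. The TMM factor of 0.652 raises the levels of that library, and the high place of its meiotic and spermatid sums depends on this factor. The part of the marker sums in the results below was not tested. In such bulk samples, fewer cells of a type and less RNA per cell cannot be told apart.

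None of the 34 mRNAs passed the test of a difference between TSSK2-IP and control IgG-IP. The test was the quasi-likelihood test of edgeR, with p-values adjusted over all 14722 genes by the Benjamini-Hochberg method. Genes with an adjusted p of 0.05 or less and a log2 fold change of 1 or more, or of -1 or less, were called. By this rule 0 of 34 were higher in TSSK2-IP, where 0.693% of all genes tested were called higher, and 0 of 34 were lower, where 0% of all genes were. DESeq2 gave no adjusted p to 79.5% of all genes tested nor to 16 of the 34 members, Khdrbs2, Tial1, Tia1, Khdrbs1 and Elavl2 among them, so these could not be called by it. Of the 18 members with an adjusted p it called 0 higher and 0 lower at the same thresholds, against 0.197% and 0.0611% of all genes tested. These 2 shares also count the 79.5% of genes without an adjusted p, so they understate the share among genes that could be called. At an unadjusted p under 0.05, edgeR found 3 members higher (Khdrbs2, Tial1 and Tia1, against 8.34% of all genes) and 0 lower (4.89% of all genes), whereas DESeq2 found 1 higher (Khdrbs2, against 5.43%) and 6 lower (Ybx1, Ybx2, Ybx3, Pabpc1, Pabpc2 and Larp1, against 9.19%). The smallest adjusted p of edgeR over the members was 0.307, for Khdrbs2. Khdrbs2 reached the cutoff of the filter on low counts only in the TSSK2-IP libraries. It was thus tested only through the group where it is high, which limits its place in these counts. With 2 libraries against 2, an exact permutation test cannot go below p = 0.333. The 95% interval of a member's fold reached, at the median, a factor of 2.12 to either side, and over the members this factor ran from 1.77 (Celf1) to 5.55 (Pabpc1). Differences of 3.67-fold for Ybx1, 3.44-fold for Pabpc2 and 4.34-fold for Khdrbs2 did not pass.

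The fold changes of the 34 mRNAs ran from -1.87 (Ybx1) to 2.12 (Khdrbs2) on the log2 scale, with 15 above 0 (44.1%, against 49.2% of all genes tested) and 19 below. Their median log2 fold change was -0.12, and that of all genes tested was -0.02. In 10 of the 34 both TSSK2-IP levels exceeded both control levels, which is 29.4% against 27.3% of all genes tested. These were Celf1, Celf2, Elavl2, Pum2, Khdrbs1, Khdrbs2, Tia1, Tial1, G3bp1 and G3bp2. In another 10, also 29.4% and against 21.6% of all genes tested, both TSSK2-IP levels were under both control levels. These were Ybx1, Ybx2, Ybx3, Pabpc1, Pabpc2, Pabpc4, Fxr1, Fxr2, Igf2bp3 and Larp1. The groups overlapped in the other 14. A log2 fold change of -1 or lower was seen in 6 members (17.6%, against 9.88% of all genes) and one of 1 or higher in 3 members (8.82%, against 11.1%).

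**Figure D1:**
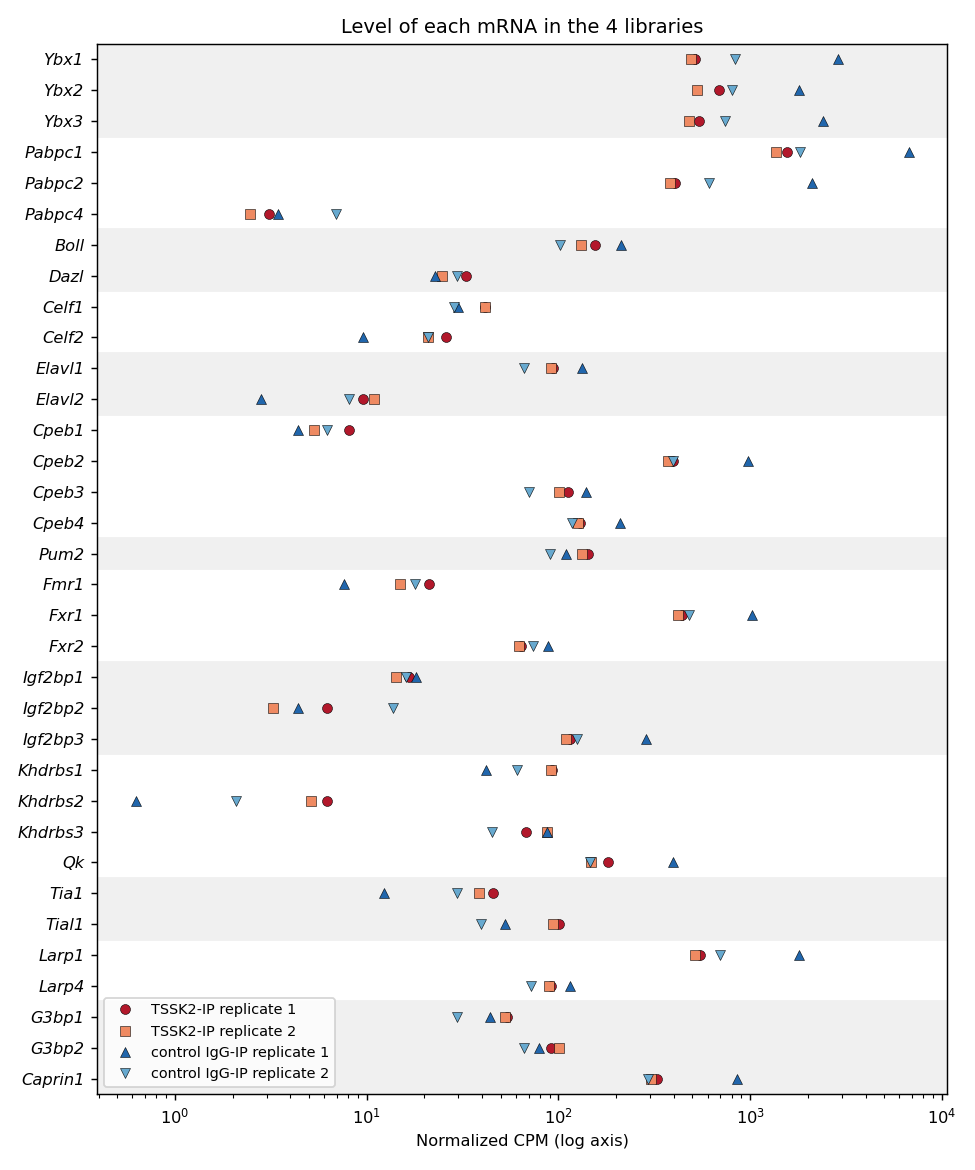
Level of each of the 34 mRNAs in the 4 libraries, in normalized CPM on a log axis, with circles and squares for TSSK2-IP replicates 1 and 2 and upward and downward triangles for control IgG-IP replicates 1 and 2. Grey and white bands separate the families, and the TSSK2-IP symbols lie less than 2-fold apart in every row. Control IgG-IP replicate 1 stands at least 2-fold to the right of control replicate 2 for 13 mRNAs. Among these are Ybx1, Ybx2, Ybx3, Pabpc1, Pabpc2 and Larp1, but also Caprin1, Qk, Cpeb2 and Igf2bp3. For 7 mRNAs replicate 2 stands at least 2-fold to the right.

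All 3 Y-box mRNAs were at a lower level in TSSK2-IP than in either control library. Ybx1 encodes the general mRNA packaging protein YBX1 and spans chr4:119277981-119294604. Its level was 515 and 492 CPM in TSSK2-IP and 2862 and 830.1 CPM in control IgG-IP. The groups did not overlap, and control replicate 1 was 3.45-fold above control replicate 2. The log2 fold change was -1.87 (SE 0.91, 95% interval -3.82 to 0.075), a 3.67-fold lower level in TSSK2-IP for which edgeR gave an adjusted p of 0.389. DESeq2 gave Ybx1 a log2 fold change of -2.03 and an adjusted p of 0.0531, the smallest it gave to any member.

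Ybx2 encodes the germ cell-specific MSY2, which binds and stabilizes stored mRNAs in spermatids and oocytes. It lay at 687 and 528 CPM in TSSK2-IP and at 1798 and 805 CPM in control IgG-IP. Its log2 fold change was -1.10 (SE 0.81), with an adjusted p of 0.544 by edgeR. Ybx3, the mRNA of a Y-box protein that is abundant in testis, had 539 and 479 CPM in TSSK2-IP and 2406 and 743 CPM in control IgG-IP. For Ybx3 the log2 fold change was -1.63 (SE 0.87), with an adjusted p of 0.419 by edgeR. In all 3 rows control replicate 2 lay much nearer to the TSSK2-IP libraries than control replicate 1 did. Without control replicate 1 the log2 fold changes were -0.66 for Ybx1, -0.35 for Ybx2 and -0.49 for Ybx3, and 0 of the 3 was called. Without control replicate 2 they were -2.58, -1.64 and -2.31, and all 3 were called lower.

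All 3 poly(A)-binding protein mRNAs were likewise at a lower level in TSSK2-IP than in either control library. Pabpc1 encodes the main cytoplasmic poly(A)-binding protein, which contacts the initiation factor EIF4G, and spans chr15:36595661-36609668. It had 1551 and 1363 CPM in TSSK2-IP and 6700 and 1829.6 CPM in control IgG-IP. Its log2 fold change was -1.55 (SE 1.15, 95% interval -4.02 to 0.92), with an adjusted p of 0.548 by edgeR. Pabpc2, the mRNA of a testis-expressed relative, lay at 406 and 382 CPM in TSSK2-IP and at 2099 and 613 CPM in control IgG-IP. The log2 fold change of Pabpc2 was -1.78 (SE 0.84, 95% interval -3.59 to 0.023), and its adjusted p of 0.383 by edgeR was the smallest of the members with lower levels. Pabpc4, whose protein is known from activated lymphocytes and platelets, was low in all 4 libraries, with 3.11 and 2.47 CPM against 3.43 and 6.89 CPM (log2 fold change -0.87, SE 0.71). Here control replicate 2 was the higher control, 2.01-fold above replicate 1. Without control replicate 1 the log2 fold changes of Pabpc1, Pabpc2 and Pabpc4 were -0.27, -0.58 and -1.24, and without control replicate 2 they were -2.27, -2.48 and -0.37. Only the last fit called any of them, Pabpc1 and Pabpc2.

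Of the La-related proteins, LARP1 binds the 5′ end of mRNAs of the translation machinery and LARP4 binds poly(A) and poly(A)-binding protein. Larp1, at chr11:58009064-58062034, had 546 and 514 CPM in TSSK2-IP and 1804 and 700.1 CPM in control IgG-IP. Its groups did not overlap, and its log2 fold change was -1.24 (SE 0.81, adjusted p 0.498 by edgeR). Without control replicate 1 this became -0.34, and without control replicate 2 it became -1.84 and was called. Larp4 had 91.4 and 89.2 CPM in TSSK2-IP, between its control levels of 115 and 71.7 CPM. Its value was 0.39 without control replicate 1 and -0.42 without control replicate 2.

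**Figure D2:**
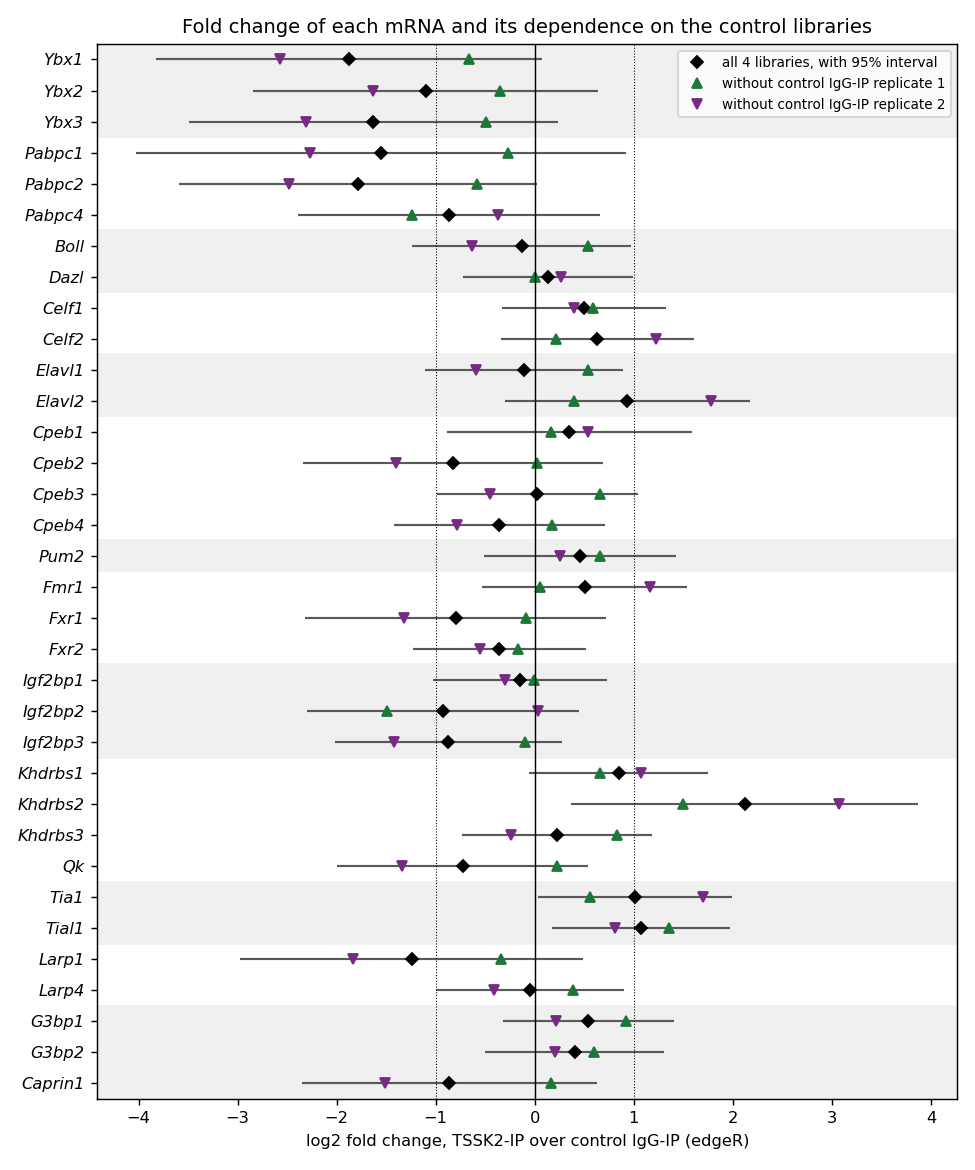
Log2 fold change of each mRNA in TSSK2-IP over control IgG-IP from edgeR, with diamonds and bars for the fit of all 4 libraries and its 95% interval, upward triangles for the fit without control IgG-IP replicate 1 and downward triangles for the fit without control IgG-IP replicate 2. Dotted lines mark a 2-fold difference, and the triangles of one mRNA often lie on opposite sides of its diamond, as for Ybx1 at -0.66 and -2.58.

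The highest fold changes belonged to the STAR and TIA families. Khdrbs2 encodes SLM1, a splicing regulator related to SAM68, and spans chr1:32172714-32658568. It was the lowest of the 34 per kilobase, with 30 and 27 counts in TSSK2-IP and 4 and 9 counts in control IgG-IP. In CPM this was 6.22 and 5.14 against 0.624 and 2.07. It reached the cutoff of the filter on low counts in both TSSK2-IP libraries and in neither control library, the 1 member of which this was true, and so was tested only through the group where it is high. Another 2 members, Pabpc4 and Elavl2, missed the cutoff in control replicate 1 alone, and the other 31 reached it in all 4 libraries. Even the lower TSSK2-IP level was 2-fold or more above the higher control level, which held for 1 member only (2.94%, against 4.01% of all genes tested). The reverse held for 0 members and 0.312% of all genes. Its log2 fold change was 2.12 (SE 0.82, 95% interval 0.37 to 3.87), with an unadjusted p of 0.0213 and an adjusted p of 0.307 by edgeR. Without control replicate 1 the value was 1.499, and without control replicate 2 it was 3.07 and was called.

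Khdrbs1 encodes SAM68, which is known to move to polysomes in meiotic germ cells. It lay at 92.5 and 91.3 CPM in TSSK2-IP and at 41.7 and 60.7 CPM in control IgG-IP, without overlap. The log2 fold change of Khdrbs1 was 0.85 (SE 0.42, 95% interval -0.056 to 1.75), with an adjusted p of 0.396 by edgeR. It was 0.66 without control replicate 1 and 1.07 without control replicate 2. Khdrbs3, the mRNA of the related SLM2, had 67.4 and 87.0 CPM in TSSK2-IP and 87.1 and 45.3 CPM in control IgG-IP, so its groups overlapped. Qk encodes Quaking, a STAR protein that acts in splicing and mRNA stability. It had 182 and 147 CPM in TSSK2-IP against 398 and 147 CPM, with overlapping groups and a log2 fold change of -0.73 (SE 0.59). Khdrbs3 stood at 0.83 and Qk at 0.22 without control replicate 1, and without control replicate 2 they were -0.24 and -1.34.

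TIA1 and TIAL1 bind U-rich elements, silence translation and form stress granules. Tial1, at chr7:128439777-128461717, had 100.3 and 93.2 CPM in TSSK2-IP and 52.7 and 39.3 CPM in control IgG-IP. Its log2 fold change was 1.07 (SE 0.42, 95% interval 0.17 to 1.97), a 2.10-fold higher level with an unadjusted p of 0.0226 and an adjusted p of 0.312 by edgeR. Tia1, at chr6:86404219-86433405, had 45.4 and 38.6 CPM in TSSK2-IP and 12.3 and 29.6 CPM in control IgG-IP. For Tia1 the log2 fold change was 1.01 (SE 0.46, 95% interval 0.031 to 1.99), with an unadjusted p of 0.0440 and an adjusted p of 0.364 by edgeR. Both mRNAs were higher in both TSSK2-IP libraries than in either control. Before TMM scaling control replicate 2 was the higher control for both. Control replicates 1 and 2 then had 34.3 and 43.4 CPM for Tial1 and 8.01 and 32.8 CPM for Tia1. After the scaling their higher control was not the same one, replicate 1 for Tial1 and replicate 2 for Tia1. Accordingly, Tial1 was called without control replicate 1 (1.36) and not without replicate 2 (0.81), and Tia1 was called without control replicate 2 (1.70) and not without replicate 1 (0.56).

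The CELF and ELAV families bind GU-rich and AU-rich elements, respectively. Celf1, whose protein promotes deadenylation of its targets, had 41.3 and 41.3 CPM in TSSK2-IP and 30.0 and 28.5 CPM in control IgG-IP. After TMM scaling its control libraries lay close together, 1.05-fold apart, while before it they had 19.5 and 31.5 CPM. The log2 fold change of Celf1 was 0.50 (SE 0.38, 95% interval -0.33 to 1.32), which was 0.59 without control replicate 1 and 0.39 without control replicate 2. Celf2 had 25.9 and 20.9 CPM in TSSK2-IP, the lower of them next to control replicate 2 at 20.9 CPM and above control replicate 1 at 9.52 CPM. The log2 fold change of Celf2, 0.63 (SE 0.46), became 0.22 without control replicate 1 and 1.23 without control replicate 2, where it was called. Elavl2, the mRNA of a neuronal and germ cell ELAV protein, had 9.54 and 10.8 CPM in TSSK2-IP and 2.81 and 8.04 CPM in control IgG-IP. The log2 fold change of Elavl2 was 0.94 (SE 0.58, adjusted p 0.477 by edgeR), and it was 0.40 without control replicate 1 and 1.78 without control replicate 2. Elavl1 encodes HuR, a widely expressed stabilizer of AU-rich mRNAs. Its TSSK2-IP levels of 94.1 and 91.0 CPM lay between control levels of 133 and 66.2 CPM, and its log2 fold change was 0.54 without control replicate 1 and -0.59 without control replicate 2.

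For the germ cell regulators of the DAZ family the groups overlapped. Boll, the mRNA of a DAZ-family protein needed for spermatid development, had 155 and 131 CPM in TSSK2-IP and 211 and 102 CPM in control IgG-IP (log2 fold change -0.13, SE 0.52). Dazl, whose protein activates translation from spermatogonia on, had 32.8 and 24.5 CPM in TSSK2-IP and 22.6 and 29.6 CPM in control IgG-IP (0.13, SE 0.40). Their 95% intervals ran from -1.24 to 0.97 for Boll and from -0.72 to 0.99 for Dazl. Boll turned from 0.54 without control replicate 1 to -0.63 without control replicate 2, and Dazl stood at 0.0041 and 0.27.

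CPEB proteins bind cytoplasmic polyadenylation elements and control the length of the poly(A) tail. Cpeb2 had 397 and 374 CPM in TSSK2-IP, on either side of control replicate 2 at 395 CPM, while control replicate 1 was at 970.5 CPM. Cpeb4 had 129 and 126 CPM in TSSK2-IP, against 210 and 118 CPM. For Cpeb3 the TSSK2-IP levels of 112 and 100.5 CPM lay between the control levels of 139 and 70.1 CPM. Cpeb1, the CPEB of meiotic germ cells, was low, with 8.09 and 5.33 CPM against 4.37 and 6.20 CPM. The log2 fold changes of the 4 were -0.83, -0.36, 0.026 and 0.35 in this order, and the groups overlapped for all 4. In the same order they were 0.021, 0.17, 0.66 and 0.16 without control replicate 1, and without control replicate 2 they were -1.40, -0.78, -0.45 and 0.54. Pum2, the mRNA of a PUF protein that represses its targets, had 142 and 133 CPM in TSSK2-IP and 110 and 90.8 CPM in control IgG-IP, with a log2 fold change of 0.45 (SE 0.45) that was 0.65 without control replicate 1 and 0.25 without control replicate 2.

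The fragile X mRNAs lay on both sides of 0 and the IGF2BP mRNAs below it. FMR1, which represses translation, and its relatives FXR1 and FXR2 form the fragile X family, and FXR1 is needed for translation in spermatids. Fxr1 had 442 and 421 CPM in TSSK2-IP and 1025 and 477 CPM in control IgG-IP, and Fxr2 had 63.4 and 62.6 CPM against 87.8 and 73.5 CPM. Neither overlapped, with log2 fold changes of -0.80 (SE 0.71) for Fxr1 and -0.36 (SE 0.41) for Fxr2. Fmr1 had 21.1 and 14.8 CPM in TSSK2-IP and 7.65 and 17.9 CPM in control IgG-IP, with a log2 fold change of 0.51 (SE 0.48). The values of Fxr1, Fxr2 and Fmr1 were -0.089, -0.17 and 0.058 without control replicate 1, and without control replicate 2 they were -1.32, -0.55 and 1.16. IGF2BP proteins protect target mRNAs from decay. Igf2bp3 had 115 and 110 CPM in TSSK2-IP and 286 and 125 CPM in control IgG-IP (log2 fold change -0.87, SE 0.53), and Igf2bp1 had 16.6 and 14.3 CPM against 18.1 and 16.1 CPM (-0.15, SE 0.41). Igf2bp2, with 6.22 and 3.24 CPM against 4.37 and 13.8 CPM, was the member whose TSSK2-IP libraries differed most, 1.92-fold. The values of Igf2bp1, Igf2bp2 and Igf2bp3 were -0.0057, -1.49 and -0.0995 without control replicate 1 and -0.30, 0.035 and -1.42 without control replicate 2.

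Among the stress granule core, G3bp1 had 54.1 and 52.7 CPM in TSSK2-IP and 43.8 and 29.4 CPM in control IgG-IP, and G3bp2 had 91.4 and 100.5 CPM against 79.4 and 65.7 CPM. Neither overlapped, with log2 fold changes of 0.54 (SE 0.40) and 0.40 (SE 0.42). These became 0.92 and 0.60 without control replicate 1, and without control replicate 2 they were 0.22 and 0.20. Caprin1, whose protein binds G3BP1, had 328 and 302 CPM in TSSK2-IP, above control replicate 2 at 292 CPM and below control replicate 1 at 854 CPM. Its log2 fold change of -0.86 (SE 0.69) became 0.17 without control replicate 1 and -1.51 without control replicate 2.

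Summed over families, the Y-box mRNAs held 1740 and 1499 CPM in TSSK2-IP and 7066 and 2378 CPM in control IgG-IP, and the poly(A)-binding protein mRNAs 1961 and 1748 CPM against 8802 and 2450 CPM. The TIA mRNAs summed to 146 and 132 CPM against 65.1 and 68.9 CPM. After TMM scaling the TIA sum was thus nearly the same in both control libraries, since Tia1 and Tial1 differed between them in opposite directions. Before the scaling both Tia1 and Tial1 were lower in control replicate 1. The median log2 fold change was -1.63 over the Y-box, -1.55 over the poly(A)-binding protein and 1.04 over the TIA mRNAs. Every member of the Y-box, poly(A)-binding protein, CELF, TIA, fragile X and PUF families kept its sign in all 11 alternative fits, other scalings included. In each of the other 7 families at least 1 member changed sign in some of these fits. Over all members, 23 kept their sign throughout and 11 did not.

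Levels per kilobase of exon allow the mRNAs to be compared with each other. The length used was that of all annotated exons of a gene, which is longer than a single transcript. In TSSK2-IP the highest were Ybx2 with 322, Pabpc1 with 223, Ybx1 with 199, Ybx3 with 165 and Pabpc2 with 152 CPM per kilobase. In control IgG-IP the same 5 led, with 729 for Ybx1, 691 for Ybx2, 652 for Pabpc1, 524 for Pabpc2 and 512 CPM per kilobase for Ybx3. In control IgG-IP the level of Ybx1 was 1131 and 328.0 CPM per kilobase in the replicates, so the order of these 5 there lies within the spread between the libraries. Larp1 was the sixth in both groups, with 77.6 and 183 CPM per kilobase. The lowest was Khdrbs2, with 0.552 in TSSK2-IP and 0.131 CPM per kilobase in control IgG-IP.

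Thus the 6 mRNAs with log2 fold changes of -1 or lower were also the 6 with the highest level per kilobase in each group. Over the 34 mRNAs, log2 fold change and mean level in log2 CPM had a Pearson's r of -0.71 and a Spearman's rho of -0.69, against a rho of -0.21 over all 14722 genes tested. Both measures come from the same 4 libraries and genes are not independent replicates, so this is a description without a test. Longer exons went with higher fold changes in the members (rho 0.47) but not over all genes (rho -0.06). The rho with GC content was -0.53 in the members and -0.14 over all genes. The members were long and abundant genes, with a median exon length of 7162 bases against 4519 bases and a median level of 6.47 against 4.08 log2 CPM in all genes tested. The part of level, length or GC content in the fold changes was not tested.

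**Figure D3:**
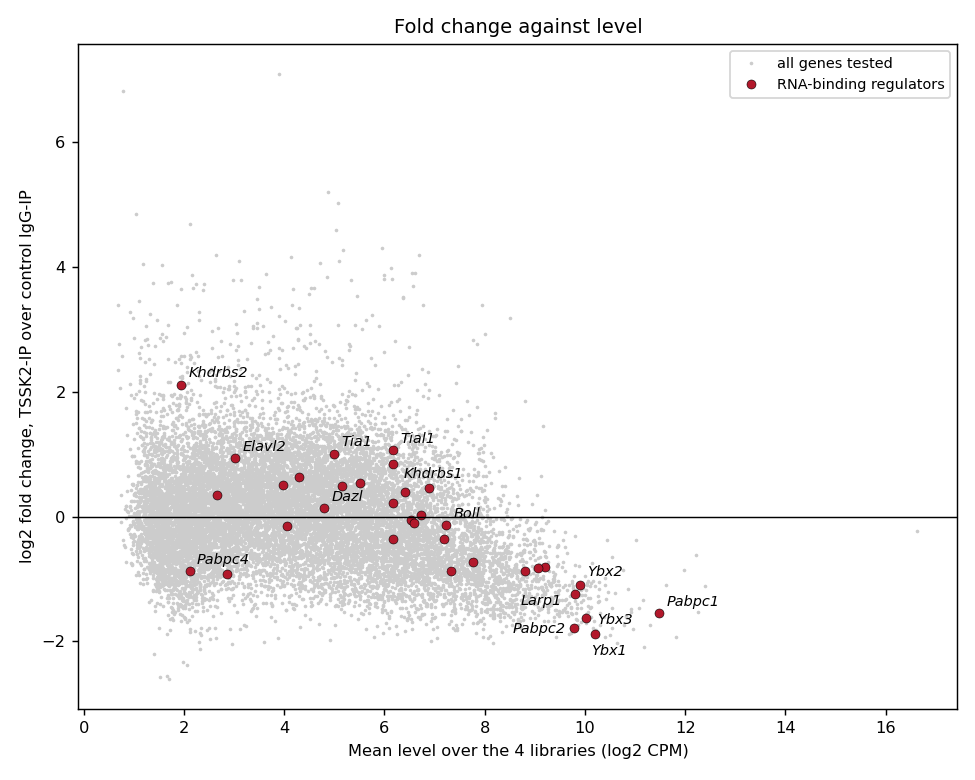
Log2 fold change in TSSK2-IP over control IgG-IP (vertical axis) against the mean level over the 4 libraries in log2 CPM (horizontal axis), with red circles for the 34 mRNAs and grey points for all 14722 genes tested. The members with log2 fold changes of -1 or lower (Ybx1, Ybx2, Ybx3, Pabpc1, Pabpc2 and Larp1) lie at the right end of the levels and Khdrbs2 at the left end.

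Other proteins of mRNA storage and translation were compared in the same way. A list of 39 further RNA-binding and storage factors held 35 tested genes, and Pabpc5, Nanos1, Nanos2 and Nanos3 did not pass the filter on low counts. Of the 35, 20 had a log2 fold change above 0 and 15 below, with a median of 0.11. Of these edgeR called 0, and at an unadjusted p under 0.05 it found 5 higher (8.34% of all genes) and 3 lower (4.89%). DESeq2 called 0 of the 12 to which it gave an adjusted p, and gave none to the other 23, which include all 6 genes named next. The smallest p among the higher genes belonged to Celf4, with 35.0 and 39.2 CPM in TSSK2-IP against 11.1 and 14.2 CPM (log2 fold change 1.55, SE 0.41, adjusted p 0.125 by edgeR). Next came Msi2, the mRNA of a Musashi translational regulator, with 90.4 and 96.1 CPM against 27.9 and 43.2 CPM (1.39, SE 0.43, adjusted p 0.211 by edgeR). In Celf4 and Msi2 the lower TSSK2-IP level was 2-fold or more above the higher control level. Without control replicate 1 the log2 fold changes were 1.44 for Celf4 and 1.17 for Msi2. Without control replicate 2 they were 1.67 for both. Syncrip followed with a log2 fold change of 1.15 (adjusted p 0.293 by edgeR). The smallest p-values among the lower genes were those of Larp6 (-1.48), Stau1 (-1.09) and Eif4enif1 (-0.95), with adjusted p-values of 0.353, 0.364 and 0.369 by edgeR. Larp6 was low and its TSSK2-IP libraries lay apart, at 8.50 and 1.90 CPM. Its log2 fold change was -2.95 without TSSK2-IP replicate 1 and -0.80 without TSSK2-IP replicate 2. For Stau1, a double-stranded RNA-binding protein of mRNA transport, the TSSK2-IP levels of 32.1 and 28.9 CPM lay just below control replicate 2 at 33.1 CPM, with control replicate 1 at 96.3 CPM. Larp6, Stau1 and Eif4enif1 stood at -0.67, -0.061 and -0.39 without control replicate 1, and without control replicate 2 they were -2.05, -1.73 and -1.39.

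Many translation initiation factors act in joining the small ribosomal subunit to the mRNA, but the list also holds genes with other roles, such as Eif4ebp2 and Eif6. Of the 38 genes listed, 36 were tested (Eif4e1b and Eif4ebp3 were not). Of these, 10 had a log2 fold change above 0 and 26 below, with a median of -0.54. Of these edgeR called 0, and at an unadjusted p under 0.05 it found 1 higher (8.34% of all genes) and 8 lower (4.89%). DESeq2 called 0 of the 19 to which it gave an adjusted p and gave none to the other 17. In 21 of the 36 both TSSK2-IP levels were under both control levels, against 21.6% of all genes tested, and in 7 both were above, against 27.3%. Subunits of the EIF3 complex had the smallest p-values among the lower genes. Eif3d had 45.2 and 46.4 CPM in TSSK2-IP and 188 and 63.9 CPM in control IgG-IP (log2 fold change -1.46, SE 0.52, adjusted p 0.273 by edgeR). Eif3f (-1.27) and Eif3l (-1.20) had adjusted p-values of 0.275 and 0.318 by edgeR. All 3 subunits lay closer to 0 without control replicate 1, at -0.42, -0.52 and -0.36, and without control replicate 2 they were -2.10, -1.80 and -1.77. The gene with a higher level and the smallest p was Eif1a, with 122 and 150.1 CPM against 35.4 and 77.2 CPM (1.28, SE 0.49, adjusted p 0.304 by edgeR). Eif4a2 (0.67) and Eif4ebp2 (0.56) followed, with adjusted p-values of 0.509 and 0.548 by edgeR. Eif1a, Eif4a2 and Eif4ebp2 stood at 0.88, 0.42 and 1.14 without control replicate 1 and at 1.88, 0.97 and 0.12 without control replicate 2. Over both lists, 3 genes were called higher and 1 lower without control replicate 1, where 5.38% and 2.56% of all genes tested were. Without control replicate 2, 11 were called higher and 25 lower, where 17.9% and 17.4% of all genes were.

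**Figure D4:**
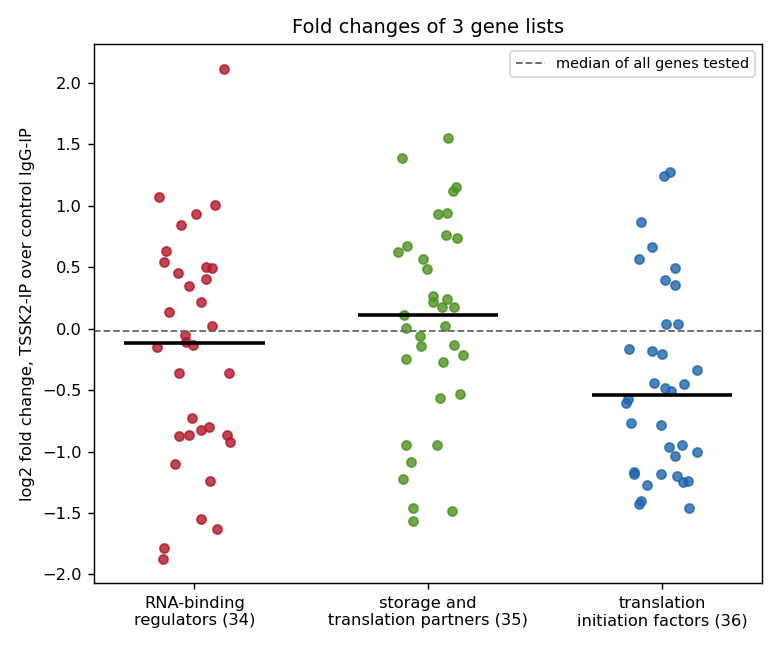
Log2 fold change in TSSK2-IP over control IgG-IP (vertical axis) of each tested gene in the 34 RNA-binding regulators, 35 further storage and translation partners and 36 translation initiation factors, with 1 point per gene, a black line at each median and a dashed line at the median of all genes tested. The medians are -0.12, 0.11 and -0.54, against -0.02 over all genes, and the 3 clouds overlap.

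Which control library was used moved the whole group of 34 as well. The median over members of the log2 ratio of the mean TSSK2-IP level to control replicate 1 was -0.32, and to control replicate 2 it was 0.11. Without control replicate 1, 1 member was called higher (Tial1, 2.94% against 5.38% of all genes tested) and 1 lower (Igf2bp2, 2.94% against 2.56%). Without control replicate 2, 6 were called higher (Celf2, Elavl2, Fmr1, Khdrbs1, Khdrbs2 and Tia1), which is 17.6% against 17.9% of all genes tested. In the same fit 11 were called lower (Ybx1, Ybx2, Ybx3, Pabpc1, Pabpc2, Cpeb2, Fxr1, Igf2bp3, Qk, Larp1 and Caprin1), which is 32.4% against 17.4%. No member is in the lists of both fits, and the share of all genes called in both is not given here. DESeq2's size factors moved the median of all genes from -0.02 to -0.14, and the members' median lay 0.10 below that of all genes with TMM and 0.12 below it with DESeq2's size factors.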

How the data were processed

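The samples were 2 TSSK2-IPs and 2 control IgG-IPs. Per the labels' processing notes, the authors used Trimmomatic 0.39 for trimming, STAR for mapping to GRCm38 and featureCounts 2.0.3 for counting. The values they deposited are whole-number raw counts of each gene, not normalized. Strand setting and treatment of reads with several matches are not given in the sources used here. Genes were named from GENCODE vM21, which held 21894 of 21936 identifiers.

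Counts were tested with edgeR 4.0.16 in R 4.3.3 (filterByExpr, TMM, glmQLFit, glmQLFTest). Each SE is the size of the log2 fold change divided by the square root of F. Library totals ran from 3938922 to 9858941 counts. Coding windows were read from the GENCODE vM21 transcript sequences, and near-identical stretches were found with BLAST+ 2.17.0. The scripts were tested on simulated data in which both groups had the same spread between libraries, unlike the libraries here.

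The alternatives were DESeq2 1.42.0, its size factors, upper-quartile normalization, no filter, at least 10 counts in every library, no mitochondrial and small non-coding RNA genes, the replicate number as a block, and leaving out each library. Values in every library were to be given for members with an unadjusted p under 0.05, the 5 largest fold changes in each direction and the 5 highest levels per kilobase, and for the further lists the 3 smallest p-values in each direction. The members, lists and tests were chosen with earlier results of these data known. DDX4-IP libraries were not used here.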

Additional observations from a re-analysis of the deposited data

How the results depend on the processing

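Over all genes, 102 were called higher and 0 lower with all 4 libraries. The count of higher genes was 29 with DESeq2, 20 with upper-quartile normalization, 283 without a filter, 29 with at least 10 counts in every library and 274 with the replicate block. The count of lower genes was 9, 24 and 3 with DESeq2, without a filter and with the replicate block. Higher genes numbered 23 without TSSK2-IP replicate 1, 33 without TSSK2-IP replicate 2, 894 without the first control IgG-IP library and 2755 without the second, and lower genes 0, 0, 426 and 2688. Among the 34 members no scaling, filter or block called any gene in either direction, nor did DESeq2 among the 18 to which it gave an adjusted p. Leaving out 1 library called 0 to 6 of them higher and 0 to 11 lower, and 0 to 11 higher and 0 to 25 lower of the partner and initiation factor genes. The members' median log2 fold change then lay between -0.39 and 0.17. Between 10 and 18 members had TSSK2-IP above every remaining control library and between 10 and 20 below. With 1 library left in a group, such a separation is easier for every gene. The share over all genes is not given here for these runs, so these counts are not read as a result about the members.

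Same-numbered libraries deviated from their group means with a correlation of 0.13 over genes, and the labels do not say that a number marks a shared animal or day, so the numbers are not read as pairs. With the replicate block the smallest adjusted p of a member by edgeR was 0.226 (Khdrbs2). The sign of Cpeb3 turned to -0.12 with DESeq2, -0.12 with DESeq2's size factors and -0.037 without a filter, and that of Larp4 to 0.030 with at least 10 counts in every library, a filter that Khdrbs2 did not pass. Leaving out 1 library turned the sign of 11 members, whose values then ranged from -0.63 to 0.54 for Boll, -0.094 to 0.32 for Dazl, -0.59 to 0.54 for Elavl1, -1.40 to 0.021 for Cpeb2, -0.45 to 0.66 for Cpeb3, -0.78 to 0.17 for Cpeb4, -1.49 to 0.035 for Igf2bp2, -0.24 to 0.83 for Khdrbs3, -1.34 to 0.22 for Qk, -0.42 to 0.39 for Larp4 and -1.51 to 0.17 for Caprin1. The cause was not tested. The main limit is the gap between both control libraries, and depth limits Khdrbs2, which had 4 and 9 control counts.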
